A study of Mus musculus with 24 samples.

Results

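The genes of the proteasome were followed across the 5 groups of a mouse brain array study of sleep loss. A gene was taken when a probe set carried exactly 1 symbol made of Psm, a letter from a to g and a digit. The brightest of its probe sets, by the mean over all 24 arrays, stood for it. This gave 49 genes of the 18193 with a probe set of 1 symbol, and they had 103 of the 45037 probe sets tested. Of the 49, 47 encode subunits, regulators or assembly factors of the proteasome. Psmc3ip and Psme3ip1, whose products are named as interactors of a subunit, were matched by the start of the name. They are not counted among the 47 and are given separately. Psme2, an activator subunit, was measured only by 1 probe set that carries several symbols, so it is not among the 49.

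The proteasome is the large protease that breaks down proteins tagged with ubiquitin in the cytosol and nucleus. Its barrel-shaped core is built of rings of alpha subunits, which gate the entrance, and rings of beta subunits, of which Psmb5, Psmb6 and Psmb7 cut peptide bonds. A regulatory particle sits on the core: its base holds the ATPases that unfold the substrate (Psmc genes), and its lid removes the ubiquitin chain. In neurons, proteasomes turn over synaptic proteins and take part in synaptic plasticity, and interferon replaces the cutting subunits by Psmb8, Psmb9 and Psmb10, the immunoproteasome.

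RNA came from brains of male mice of 12 weeks, give or take 1 week, that had been kept awake by gentle handling for the first 6 h of the light phase or had been left alone for that time. Pull-down RNA (n = 6 sleep-deprived, n = 6 control) was recovered on anti-FLAG beads from brains perfused with formaldehyde, by mRNA tagging of cells that express Homer1a, an activity-induced splice form of the scaffold Homer1. Supernatant (n = 4), whose source field names cells negative for Homer1a, is the total RNA left after pull-downs, and whole brain (n = 4 sleep-deprived, n = 4 control) is total RNA of unfixed brains. Amplification is named in the labels only for the immunoprecipitated RNA, and strain, transgene and promoter are not given in the sources used here. For supernatant 13 the title and the source field disagree on sleep deprivation, so the 4 supernatants were 1 group. By title that group holds 3 sleep-deprived samples and 1 control, and it was set against means that weight both conditions equally. Nothing says whether the samples of a group are separate animals, so p-values measure the spread between these samples. In such tissue RNA, fewer cells of a type and less RNA per cell cannot be told apart.

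The extracts differed as a whole. The median log2 intensity of an array was 4.37 to 5.70 in pull-down and 6.04 to 6.24 in the other extracts. The control probe sets for 18S ribosomal RNA read 6.83 to 11.1 in pull-down and 13.8 to 14.4 elsewhere, and Gapdh read at its 3′ end 3.29 to 5.96 log2 units above its 5′ end in pull-down, against 2.31 to 2.95. Sleep-deprived pull-down 1 and control pull-down 3 had the most 18S signal among the pull-downs, and control pull-down 11 the highest median and the lowest Gapdh difference. The part of these measures in the results was not tested. For the brightest probe sets, directions between extracts were read also after quantile normalization of the 24 arrays and after subtracting each array's median. Over all probe sets the median difference between pull-down and whole brain was -0.78 as deposited, 0.09 after the first and 0.37 after the second.

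To show genes of both directions as sequence, the promoter windows are given of Psmb3, the highest against whole brain, of Psmc6, the higher gene with no probe set called lower, and of Psmc5 and Psmd1, the lowest. They run 5′ to 3′, from 250 bases before to 50 bases after the transcript start (RefSeq, GRCm38.p6). Capitals mark matches, on either strand, to TGACNNNGC (the antioxidant response element, bound by Nfe2l1 and Nfe2l2), to the CCAAT box, to the GC box GGGCGG, to the nuclear respiratory factor 1 motif and to the ETS factor core CCGGAAG. In the Psmc6 window an ETS core and a GC box abut, and in the Psmd1 window 2 GC boxes overlap.
Psmb3, chr11:97703184-97703483, + strand: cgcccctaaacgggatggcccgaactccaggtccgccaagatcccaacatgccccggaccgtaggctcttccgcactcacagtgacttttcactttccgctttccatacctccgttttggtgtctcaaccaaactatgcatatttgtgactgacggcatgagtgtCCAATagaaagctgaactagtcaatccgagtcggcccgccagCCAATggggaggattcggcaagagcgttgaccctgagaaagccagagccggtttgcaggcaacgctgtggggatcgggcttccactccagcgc
Psmc6, chr14:45329574-45329873, + strand: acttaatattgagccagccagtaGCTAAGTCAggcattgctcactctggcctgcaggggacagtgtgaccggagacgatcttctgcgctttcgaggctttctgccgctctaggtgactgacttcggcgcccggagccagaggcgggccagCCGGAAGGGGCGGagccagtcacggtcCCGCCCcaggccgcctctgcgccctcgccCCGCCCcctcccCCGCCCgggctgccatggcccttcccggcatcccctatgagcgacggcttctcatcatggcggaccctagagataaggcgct
Psmc5, chr11:106255935-106256234, + strand: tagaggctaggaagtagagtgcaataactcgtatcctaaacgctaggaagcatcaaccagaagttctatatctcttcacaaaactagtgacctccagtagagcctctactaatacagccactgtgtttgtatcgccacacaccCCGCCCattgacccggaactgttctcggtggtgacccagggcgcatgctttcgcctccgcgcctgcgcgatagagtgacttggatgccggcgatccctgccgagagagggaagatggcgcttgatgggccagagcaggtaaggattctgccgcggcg
Psmd1, chr1:86064369-86064668, + strand: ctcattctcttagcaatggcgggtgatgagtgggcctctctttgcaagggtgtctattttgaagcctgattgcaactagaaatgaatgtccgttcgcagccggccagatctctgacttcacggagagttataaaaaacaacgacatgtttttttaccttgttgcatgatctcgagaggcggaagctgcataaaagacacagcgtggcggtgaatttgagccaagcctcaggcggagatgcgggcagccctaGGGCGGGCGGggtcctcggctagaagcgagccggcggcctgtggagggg

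RefSeq held 44 windows for 41 of the 49 genes. The ETS core was in 38.6% of them, against 8.86% of all 32851 windows of this length, and lay in the window of Psmc6 but in none of the other 3 shown. The GC box was in 52.3% against 35.7%, and in the windows of Psmc6, Psmc5 and Psmd1. The CCAAT box, present 2 times in the Psmb3 window, was in 36.4% against 37.4%, and the antioxidant response element, present in Psmc6, in 13.6% against 12.4%. The nuclear respiratory factor 1 motif was in 4.55% against 0.971%, and in none of the 4 shown. These are counts of letters in a window, not binding sites.

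The level of the 49 genes followed the extract. The median of the 49 log2 values was 7.00 to 8.02 in the 12 pull-down arrays, 8.26 to 8.61 in the 4 supernatants and 8.59 to 8.89 in the 8 whole brains. Among the pull-downs it was highest in sleep-deprived 1 (8.02) and control 3 (7.92) and lowest in control 11 (7.00), the arrays that stood apart above. In the heat map, rows that brighten in pull-down sit beside rows of the same complex that darken.

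**Figure D1:**
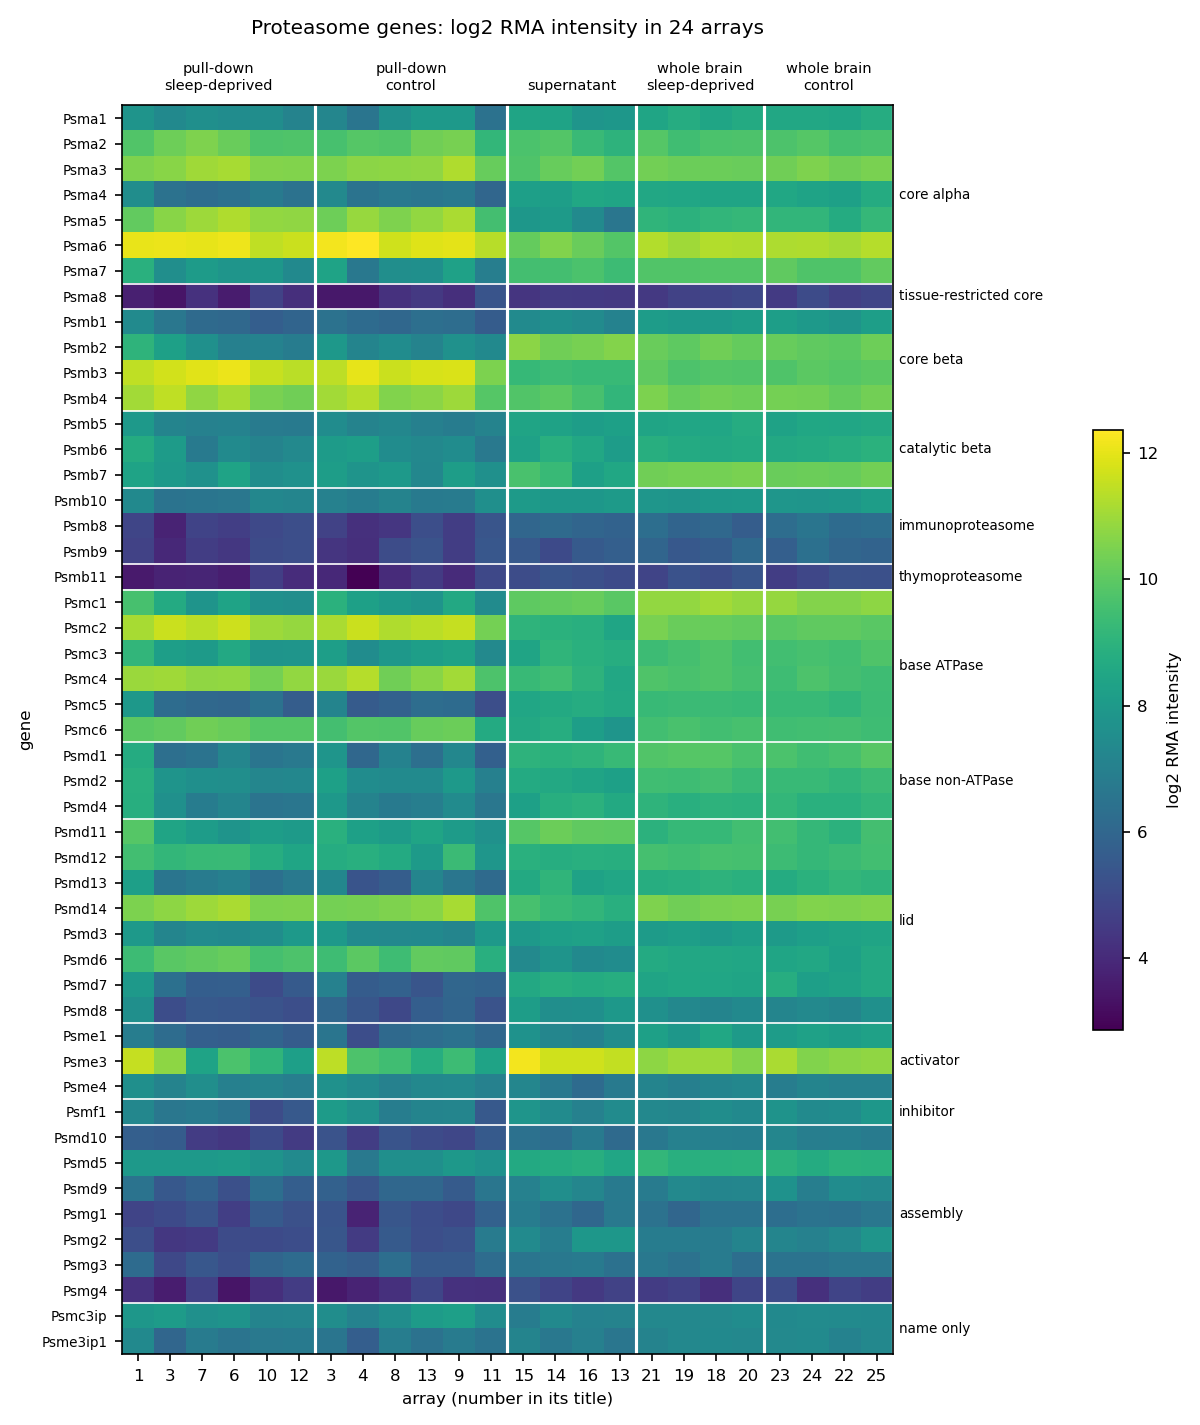
Each row is a gene, each column 1 of the 24 arrays, and colour is the log2 RMA intensity of the gene's brightest probe set. Psmb3 reads 10.50 to 12.10 in pull-down and 9.70 to 10.04 in whole brain, while Psmc5 reads 5.17 to 7.93 and 9.12 to 9.39. Rows should not be compared in level, since probe sets differ in brightness.

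Against whole brain, pull-down differed in both directions within the core, the base and the lid. At an adjusted p under 0.05, 9 genes were higher: Psma3, Psma5, Psma6, Psmb3, Psmb4, Psmc2, Psmc4, Psmc6 and Psmd6, each also under both other scalings. They are 18.4% of the 49, against 8.06% of all probe sets and 12.9% of all genes by their brightest probe set. Lower were 36 genes, 73.5%, against 76.3% of all probe sets and 68.8% of genes, a share near the background. The median difference of the 49 was -1.17, against -0.78 over all probe sets and -0.64 over all genes. Of the 36, 17 were lower under all 3 scalings, and over the 49 genes 10 changed sign with the scaling. Quantile normalization gave 15 higher and 25 lower with a median of -0.29, beside 32.3% and 26.2% of all probe sets. Median subtraction gave 18 and 17 with a median of -0.02, beside 52.0% and 18.3%. A larger share of higher genes than over all probe sets was thus found only as deposited. In 4 genes every pull-down was above every whole brain (3.35% of all probe sets), and in 25 every pull-down was below (27.5%). Without the 3 pull-downs that stood apart, 10 were higher and 36 lower.

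**Figure D2:**
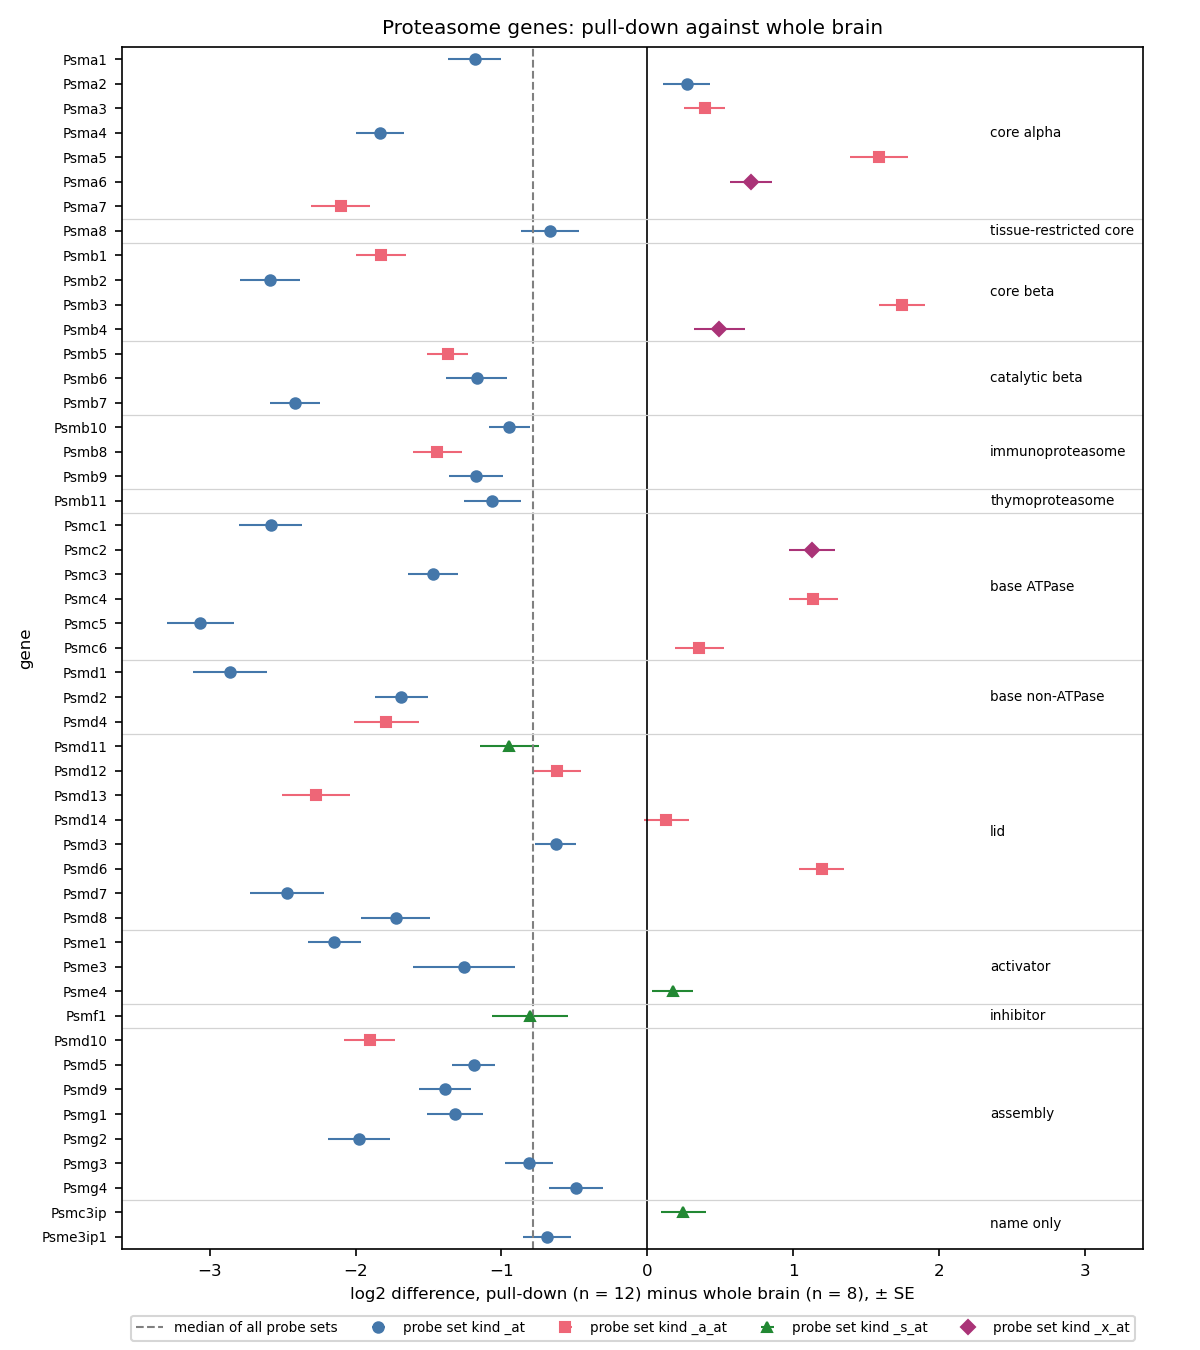
Points are log2 differences of pull-down (n = 12) minus whole brain (n = 8) with SE, by role, coloured by the kind of probe set; the dashed line is the median of all probe sets. Psmb3 at 1.75 and Psmc5 at -3.06 are the ends, and 31 of the 49 genes lie left of the dashed line.

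In the core, 5 of the 14 standard subunits were higher and 8 lower. Psmb3, a structural beta subunit, read 10.50, 11.66 and 12.10 (lowest, median and highest) in the 12 pull-downs. In whole brain it read 10.04, 9.70, 9.81 and 9.81 after sleep deprivation and 9.77, 9.97, 9.85 and 9.97 in controls. Every pull-down was above every whole brain, the difference being 1.75 ± 0.16 (SE; adjusted p = 2.47e-10). Psma5, an alpha subunit, read 9.52, 10.80 and 11.26 in pull-down and 8.72 to 9.19 in whole brain, again with no overlap (1.59 ± 0.20, adjusted p = 6.97e-08). Control pull-down 11 was the lowest pull-down for both genes.

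The other alpha subunits spread between Psma5 and Psma7. Psma6 was higher by 0.71 ± 0.14 and Psma3 by 0.39 ± 0.14, the latter with overlapping arrays. Psma2, nearest the median of the 7 alpha subunits, differed by 0.27 ± 0.16 and was not called (adjusted p = 0.123; 0.0333 without control pull-down 11, and 0.0109 and 1.49e-05 after quantile normalization and median subtraction). Psma7 (-2.10 ± 0.20), Psma4 (-1.83 ± 0.16) and Psma1 (-1.18 ± 0.18) were lower, Psma1 not past the threshold after median subtraction.

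Among the structural beta subunits Psmb4 (0.49 ± 0.17) was higher beside Psmb3, while Psmb2 and Psmb1 were lower. Psmb2 read 6.85, 7.42 and 9.03 in pull-down and 9.97 to 10.32 in whole brain, without overlap (-2.59 ± 0.21, adjusted p = 3.01e-11). Sleep-deprived pull-down 1 was the highest pull-down for Psmb2. Psmb1 differed by -1.83 ± 0.17, and both genes were lower under all 3 scalings by their brightest probe sets. Of the 3 probe sets of Psmb1, however, only this 1 was called lower as deposited, and 1 was called higher (0.63).

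The 3 cutting subunits were all lower as deposited. Psmb7, of the trypsin-like site, read 7.28, 7.90 and 8.37 in pull-down and 10.15 to 10.47 in whole brain, a gap wider than the range of either group (-2.42 ± 0.17, adjusted p = 3.34e-12), and was lower under all 3 scalings. Psmb5, of the chymotrypsin-like site, differed by -1.37 ± 0.14, and Psmb6, of the caspase-like site, by -1.17 ± 0.21. After median subtraction neither was past the threshold (-0.21, adjusted p = 0.265, and -0.01, adjusted p = 0.968).

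In the base, 3 of the 6 ATPases were higher and 3 lower by their brightest probe sets. Over all its probe sets, Psmc4 had 1 higher and 1 lower (-1.85). Psmc2 had 1 higher and 2 lower (down to -1.74), and Psmc6 had 2 higher and 0 lower. Psmc4 differed by 1.14 ± 0.17, Psmc2 by 1.13 ± 0.16 and Psmc6 by 0.36 ± 0.17 (adjusted p = 0.0491, close to the threshold). Psmc6 read 8.68, 9.92 and 10.31 in pull-down and 9.43 to 9.64 in whole brain, and the groups overlapped through control pull-downs 11 (8.68) and 3 (9.52). Psmc5 had the lowest difference of all 49 genes, reading 5.17, 6.14 and 7.93 in pull-down against 9.12 to 9.39 in whole brain (-3.06 ± 0.23, adjusted p = 9.16e-12). Its highest pull-downs were sleep-deprived 1 (7.93) and control 3 (7.17), and without the 3 arrays that stood apart the difference was -3.25. Psmc1 (-2.58 ± 0.21) and Psmc3 (-1.47 ± 0.17) were lower too, Psmc3 without passing the threshold after median subtraction (-0.31).

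The 3 base subunits that are no ATPases were lower under all 3 scalings. Psmd1, a scaffold that docks ubiquitin receptors, read 5.79, 6.64 and 8.71 in pull-down and 9.45 to 9.90 in whole brain, with no overlap (-2.86 ± 0.26, adjusted p = 2.02e-10). Its highest pull-down was sleep-deprived 1. Psmd4, a ubiquitin receptor, differed by -1.79 ± 0.22, and Psmd2, a second scaffold, by -1.69 ± 0.18.

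In the lid, 1 of 8 subunits was higher, 6 were lower and 1 was not called. Psmd6 read 8.87, 9.82 and 10.14 in pull-down and 8.26 to 8.69 in whole brain, without overlap (1.19 ± 0.15, adjusted p = 1.17e-07). The other probe set of Psmd6 was called lower (-1.02). Psmd14, the enzyme that cuts off ubiquitin chains, differed by 0.13 ± 0.15 (adjusted p = 0.423), and was called higher after median subtraction (1.29). Psmd7, which pairs with Psmd14 in the lid, differed by -2.47 ± 0.25, Psmd13 by -2.27 ± 0.23 and Psmd8 by -1.72 ± 0.23, all lower under the 3 scalings. Psmd3, nearest the median of the lid, differed by -0.63 ± 0.14 as deposited and by 0.15 and 0.53 after quantile normalization and median subtraction.

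Of the regulators, Psme1, an interferon-induced activator subunit, was lower by -2.15 ± 0.18 and under all 3 scalings. Psme3, the nuclear activator, had the widest pull-down range of the 49 genes, 8.22 to 11.53, with sleep-deprived 1 (11.53) and control 3 (11.43) above every whole brain (10.56 to 11.18). Its difference was -1.26 ± 0.35 (adjusted p = 0.00206), and -0.10 after median subtraction. Psme4, another activator, differed by 0.17 ± 0.14 (adjusted p = 0.244) and was called higher under both other scalings (1.12 and 1.33). That is its brightest probe set of 6, and the other 5 were called lower as deposited, down to -1.93. Psmf1, an inhibitor of the core, differed by -0.81 ± 0.26 (adjusted p = 0.00653; 0.175 among undisturbed arrays alone), and by 0.03 and 0.35 under the other scalings.

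All 7 assembly factors were lower as deposited, beside 76.3% of all probe sets. They ran from Psmg2 (-1.98 ± 0.21) over Psmg1 (-1.32 ± 0.19, nearest the median) to Psmg4 (-0.49 ± 0.19). Psmg2 and Psmd10 stayed lower under the 3 scalings and the other 5 did not. The immunoproteasome genes were lower as deposited: Psmb8 by -1.44 ± 0.17, Psmb9 by -1.17 ± 0.18 and Psmb10 by -0.94 ± 0.14. Of these Psmb8 was lower also under both other scalings, while Psmb10 had a difference of 0.21 after median subtraction.

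Psmb11, known from the thymus, and Psma8, known from the testis, served as genes not known for brain expression. They read 2.87 to 4.94 and 3.43 to 5.32 in pull-down. Their differences of -1.06 ± 0.20 and -0.67 ± 0.20 turned to 0.09 and 0.49 after median subtraction. In pull-down the immunoproteasome genes Psmb8 and Psmb9 read close to the level of Psma8, with medians of 4.76 and 4.68 (Psma8 4.16). The highest pull-down values of Psmb8 and Psmb9 were 5.36 and 5.45. Of the assembly factors, Psmg4 read at the level of Psma8 in pull-down (median 4.18) and in whole brain (4.15 to 5.03). Psmd10, Psmg2 and Psmg1 had pull-down medians of 5.02, 5.13 and 5.17, under the highest Psma8 value. Whether Psmb8, Psmb9 and these 4 were above background in pull-down was not tested, so the size of their differences is not read. Of the 2 genes named as interactors of a subunit, Psme3ip1 differed by -0.69 ± 0.16, with positive values under the other scalings, and Psmc3ip by 0.25 ± 0.15 (adjusted p = 0.136).

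The direction depended on the probe set. Of the 49 genes, 27 had several probe sets, and in 10 of these some probe sets were called higher and others lower against whole brain, beside 23.6% of the 9010 genes with several probe sets on the array. All 9 higher genes had several probe sets, as did 79.1% of the 2341 genes on the array whose brightest probe set was higher. In 8 of the 9 the second brightest was called lower; over the array this held for 71.3% of the 1852 genes of that kind. Over all 103 probe sets, 12 were higher and 83 lower. These are counts as deposited. Quantile normalization gave 24 and 44 probe sets, 10 genes with calls both ways (29.1% over the array) and 7 of the 9 with the second lower, and median subtraction 38 and 28, 12 genes (27.8%) and 5 of the 9. As deposited, the exception among the 9 was Psmc6, whose 3 probe sets differed by 0.36 ± 0.17, 1.84 ± 0.18 and 0.31 ± 0.18, the last not called (adjusted p = 0.110).

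Psmd11, Psmb4 and Psmb3 had the widest spread between probe sets. The second Psmb3 probe set (1417052_at) read 4.42 to 6.17 in the pull-downs and 7.23 to 7.48 in whole brain, a difference of -1.87 ± 0.19 against 1.75 for the brightest. The second Psmb4 probe set (1451205_at) read 5.60 to 7.38 in the pull-downs, a difference of -3.48 ± 0.17 against 0.49. In both genes the second probe set was thus below every whole brain in every pull-down. Psmd11, a lid subunit, had 8 probe sets, of which 1 was higher (1440253_at, 8.05 to 9.84 against 6.63 to 7.33, difference 1.93 ± 0.22) and 7 were lower, down to -2.76 ± 0.19 for 1456104_at. Its brightest differed by -0.95 ± 0.20, so Psmd11 counts as lower.

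Within an array, the log2 difference between a gene's brightest and second probe set does not move with a shift of the whole array, and only its change between arrays is read here. In Psmb4 it was 3.31 to 5.52 in pull-down, 0.37 to 0.80 in whole brain and 0.34 to 1.35 in supernatant. In Psma5 it was 1.00 to 2.53, -0.82 to -0.27 and -2.38 to -0.58. The choice of genes whose brightest probe set was higher fixes part of this, so no count over the 9 is read. In Psmc6 it was -0.17 to 1.02 in pull-down, below all whole brains (1.38 to 2.02).

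**Figure D3:**
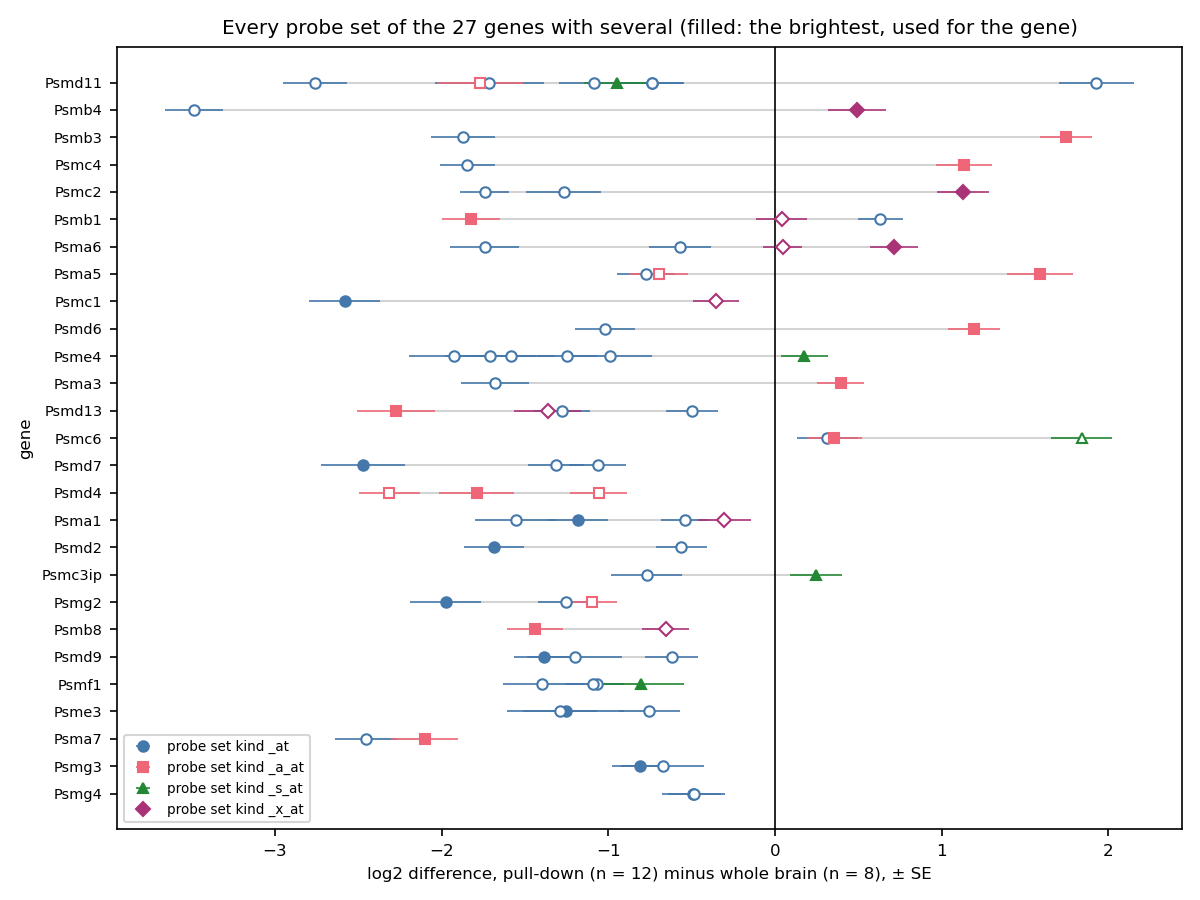
Each point is a probe set of the 27 genes with several, its log2 difference of pull-down (n = 12) minus whole brain (n = 8) with SE; filled points are the brightest. Psmb4 spans -3.48 to 0.49 and Psmd11 -2.76 to 1.93, and Psmc6 is the only gene whose points all lie right of 0.

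The brightest probe sets were split by their kind. On this array type the ending _at marks a probe set meant for 1 transcript, _a_at one shared by transcripts of 1 gene, _s_at one shared by several transcripts, and _x_at one with probes that may also match other sequences. Of the 27 genes represented by an _at probe set, 0 were higher and 26 lower. Of 15 by an _a_at, 6 were higher and 8 lower, of 4 by an _s_at 0 and 2, and all 3 by an _x_at (Psma6, Psmb4, Psmc2) were higher. Over the whole array 5.79% of _at, 10.9% of _a_at, 18.4% of _s_at and 27.5% of _x_at probe sets were higher, and 78.8%, 78.2%, 64.1% and 47.5% were lower. Over all probe sets of the 49 genes, 2 of 69 _at were higher and 65 lower, 6 and 13 of 20 _a_at, 1 and 2 of 5 _s_at, and 3 and 3 of 9 _x_at. All of these are calls as deposited. Where in the transcript a probe set lies is not known from the sources used here, and the part of position in these splits was not tested.

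Another way to represent a gene changed the count of higher genes. The mean of a gene's probe sets left 1 higher, Psmc6, and 42 lower. Restricted to _at and _a_at probe sets, 7 were higher and 40 lower. The choice by the mean over 24 arrays includes the 12 pull-downs and so leans toward probe sets that are bright there. With the probe set brightest in supernatant, which is in neither group, 8 were higher and 38 lower, and Psma5 turned to -0.70. Shares over all genes represented in these ways are not given here, so these counts are not read as particular to the proteasome.

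Against supernatant, the RNA that the beads had left, 13 genes were higher (26.5%; 11.2% of all probe sets, 17.4% of genes) and 33 lower (67.3%; 67.4% and 58.7%). The median difference was -0.90, against -0.85 over all probe sets. It was -0.18 after quantile normalization, with 16 higher and 17 lower, beside 27.2% and 27.6% of all probe sets. After median subtraction it was 0.28, with 18 and 7, beside 44.1% and 18.8%. All 13 were higher under the 3 scalings, and 7 of the 33 were lower under all 3. In 7 genes every pull-down was above every supernatant (6.39% of all probe sets), and in 20 below (32.1%). The 9 genes higher than whole brain were among the 13, that is, higher than both references, as were 7.46% of all probe sets; 33 were lower than both, against 65.8%. Both comparisons use the same pull-downs. The other 4 were Psma2, Psmd14, Psme4 and Psmc3ip.

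Psma5 had the largest difference. It read 7.90, 8.05, 7.41 and 6.61 in the supernatants, below every pull-down and every whole brain, so pull-down minus supernatant was 3.16 ± 0.25 (adjusted p = 4.99e-11). The arrays fell in the order supernatant, whole brain, pull-down without overlap. Psmc2 (2.42 ± 0.20) and Psmb3 (2.31 ± 0.20) followed, both without overlap. Psmd14 separated as well, 9.76 to 11.17 against 8.85 to 9.60 (1.40 ± 0.19).

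At the other end Psmb2 differed by -2.97 ± 0.26, Psmd7 by -2.72 ± 0.32 and Psmc5 by -2.41 ± 0.29, lower under the 3 scalings and without overlap. Of the cutting subunits Psmb5 differed by -1.16 ± 0.18, Psmb7 by -1.04 ± 0.22 and Psmb6 by -0.90 ± 0.26, and of the immunoproteasome Psmb8 by -1.27 ± 0.21, Psmb10 by -0.9996 and Psmb9 by -0.72 ± 0.23. After median subtraction these were positive, 0.02 to 0.46, except Psmb8.

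Nearest the medians of their roles lay Psmd4 (-1.48 ± 0.28), Psmd11 (-1.72 ± 0.26), Psmc3 (-0.69 ± 0.22), Psme1 (-1.34 ± 0.23), Psmd9 (-1.27 ± 0.23), Psmb1 (-1.17 ± 0.22) and Psma2 (0.50 ± 0.21). Of the first 6, Psmd4 and Psmd11 were called also after quantile normalization, and none after median subtraction. Psma2 lost its call without supernatant 16 or 13 (adjusted p = 0.0860 and 0.164), and Psmc3ip (0.52 ± 0.19) without supernatant 15 (adjusted p = 0.0704). Psmf1 (-0.75 ± 0.33, adjusted p = 0.0412) lost it without any 1 of sleep-deprived pull-down 10 or 12, control pull-down 8 or supernatant 13, 14 or 15 (adjusted p 0.0533 to 0.133). Psmb11 differed by -1.17 ± 0.25 and Psma8 by -0.37 ± 0.25 (adjusted p = 0.178).

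The references also differed from each other. In whole brain 10 genes were higher than in supernatant (20.4%; 8.89% of all probe sets, 13.2% of genes) and limma called 0 lower (2.01%), with a median of 0.31 against -0.03. At an unadjusted p under 0.05, 18 were higher (14.5% of all probe sets) and 1 lower (7.89%). In 19 genes every whole brain was above every supernatant (12.4%), and in Psmd11 and Psme3 below (8.65%). Psma5 (1.57 ± 0.27), Psmb7 (1.38 ± 0.23) and Psmc2 (1.29 ± 0.21) led, followed by Psmd14, Psmc6, Psmd6 and Psma6 between 1.01 and 1.27, and by Psmd2, Psme1 and Psmc3 between 0.78 and 0.86. Of these 10, 8 were higher under all 3 scalings. With 1 array left out, 7 to 14 genes were called higher.

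Lowest were Psme3 (-0.95 ± 0.47, adjusted p = 0.233), Psmd11 (-0.78 ± 0.27, adjusted p = 0.0651) and Psmd8 (-0.47 ± 0.32, adjusted p = 0.427). The pull-downs set part of the spread used in this fit. Without sleep-deprived pull-down 1, or without control pull-down 11, Psmd11 was called lower (adjusted p = 0.00781 and 0.0460), and without the 3 pull-downs that stood apart 18 were higher and 2 lower. The immunoproteasome genes were not called (Psmb9 0.45 ± 0.25, Psmb8 0.17 ± 0.23, Psmb10 -0.05 ± 0.19), nor were Psmb5 (0.21 ± 0.19) and Psmb6 (0.27 ± 0.28).

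Each immunoproteasome subunit takes the place of 1 standard subunit, so each pair was compared within arrays, as the log2 difference of the inducible minus the standard probe set. Its size depends on the probe sets. Its change between extracts may depend on them too, as 2 probe sets of 1 gene also moved apart. In Psmb4 their difference was 3.31 to 5.52 in pull-down and 0.37 to 0.80 in whole brain. The part of the probe sets in the changes below was not tested. Changes between groups were tested by an exact two-sided permutation test of the arrays, adjusted over 15 tests. Psmb10 minus Psmb7 had a mean ± SD of -0.92 ± 0.50 over 12 pull-downs and of -2.39 ± 0.13 over 8 whole brains. Every pull-down was above every whole brain, a change of 1.47 ± 0.15 (SE; exact p = 7.94e-06, the smallest these arrays can give; adjusted p = 0.000119). In the supernatants it was -1.57, -1.40, -0.35 and -0.49, also above whole brain (whole brain minus supernatant -1.44 ± 0.32, exact permutation adjusted p = 0.0152). Pull-down and supernatant overlapped (0.04 ± 0.34, exact permutation adjusted p = 0.980). Psmb7 lay lower in pull-down and in supernatant (8.26 to 9.63) than in whole brain, whereas Psmb10 lay at 7.88 to 8.06 in supernatant and 7.79 to 8.16 in whole brain.

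Psmb8 minus Psmb5 changed by -0.07 ± 0.21 and Psmb9 minus Psmb6 by -0.00 ± 0.29 between pull-down and whole brain, neither past the threshold (exact permutation adjusted p = 0.980 and 0.992). The pull-down values of these pairs spread widely, with SDs of 0.58 and 0.96 over 12 arrays. Psmb8 and Psmb9 read close to the level of Psma8 in pull-down, so a lack of change in these pairs cannot be read. With sleep deprivation no pair passed. Psmb10 minus Psmb7 in whole brain was -2.45, -2.59, -2.44 and -2.47 after sleep deprivation and -2.32, -2.40, -2.27 and -2.19 in controls, without overlap, a change of -0.19 ± 0.06. Its exact p of 0.0286 is the smallest that 4 arrays against 4 allow, and the adjusted p was 0.143.

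**Figure D4:**
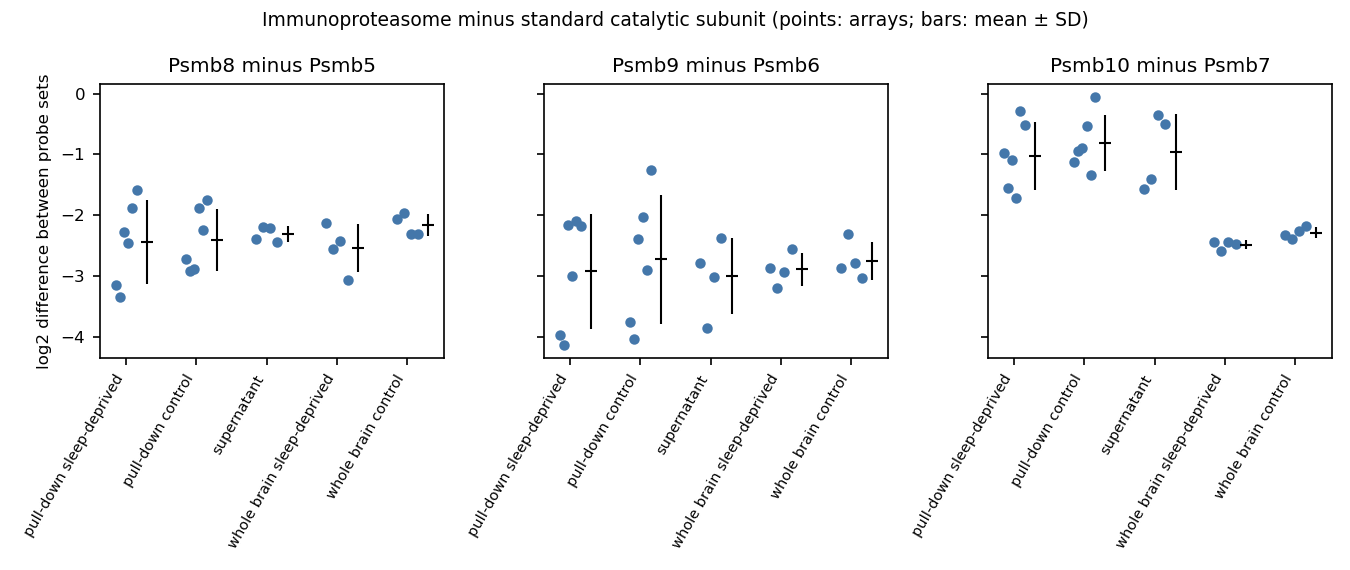
Points are arrays and bars the mean ± SD of the log2 difference between the inducible and the standard cutting subunit, for the 5 groups. Psmb10 minus Psmb7 lies between -2.59 and -2.19 in whole brain and between -1.71 and -0.05 in pull-down, while in the other pairs pull-down and whole brain overlap.

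Sleep deprivation changed none of the 49 genes past the threshold. Within pull-down (6 against 6) limma called 0, and 0 were past an unadjusted p of 0.05; over all probe sets 0% were called, and 0.493% were higher and 0.462% lower at an unadjusted p under 0.05. Within whole brain (4 against 4) limma called 0, where 0.0355% of all probe sets were called higher and 0.0111% lower. At an unadjusted p under 0.05, 0 were higher there and 3 lower, against 2.1% and 8.83% of all probe sets. The limma test of the difference of both effects called 0, with 0 at an unadjusted p under 0.05 (0.2% and 0.138% of all probe sets). In pull-down all 49 overlapped between conditions, as all but 0.04% (higher) and 0.0178% (lower) of probe sets did.

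The median difference of the 49 was 0.10 in pull-down and -0.01 in whole brain, against -0.05 and -0.07 over all probe sets. The sign of single values moved with the scale: 21 of the 49 were above 0 in whole brain as deposited and 39 after median subtraction. Standard errors were 0.22 to 0.55 in pull-down and 0.10 to 0.18 in whole brain.

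The 3 genes past an unadjusted p of 0.05 in whole brain were an assembly chaperone, an immunoproteasome subunit and the inhibitor. Psmg2 read 6.87, 6.87, 6.82 and 7.15 after sleep deprivation and 7.19, 7.05, 7.32 and 7.84 in controls (-0.43 ± 0.16, adjusted p = 0.381). Psmb8 read 6.29, 5.93, 6.09 and 5.67 against 6.26, 6.56, 6.18 and 6.30 (-0.33 ± 0.14, adjusted p = 0.426). Psmf1 read 7.30, 7.23, 7.51 and 7.37 against 7.75, 7.40, 7.49 and 7.91 (-0.29 ± 0.13, adjusted p = 0.450). In each of these the groups overlapped.

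Psmc2 was the single gene without overlap in whole brain, 10.48, 10.21, 10.16 and 10.10 against 9.94, 10.04, 10.06 and 9.94 (0.24 ± 0.11, adjusted p = 0.461); 1.75% of all probe sets were so separated upward and 4.25% downward. Psmc2, Psmg2, Psmb8 and Psmf1 kept their sign under both other scalings. Of the remaining immunoproteasome and cutting subunits, Psmb9 differed by -0.20 ± 0.16, Psmb6 by -0.06 ± 0.11, Psmb10 by -0.04 ± 0.11, Psmb5 by 0.05 ± 0.11 and Psmb7 by 0.16 ± 0.10.

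In pull-down the smallest p-values were those of Psmf1, Psmg2 and Psmd12. Psmf1 read 7.26, 6.64, 6.77, 6.47, 5.09 and 5.51 after sleep deprivation and 8.07, 7.69, 6.90, 7.16, 7.18 and 5.53 in controls, a difference of -0.80 ± 0.41. Its lowest arrays were sleep-deprived 10 and 12 and control 11, and the groups overlapped. Psmg2 differed by -0.59 ± 0.32 and Psmd12, a lid subunit, by 0.49 ± 0.28, and limma's adjusted p was 1.00 for all 3. Psmb5 to Psmb10 differed by -0.17 to 0.10. For the pull-down effect minus the whole-brain effect the smallest p-values were those of Psmd13 (0.65 ± 0.49), Psma7 (0.46 ± 0.43) and Psmc3 (0.39 ± 0.36), with an adjusted p of 1.00.

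**Figure D5:**
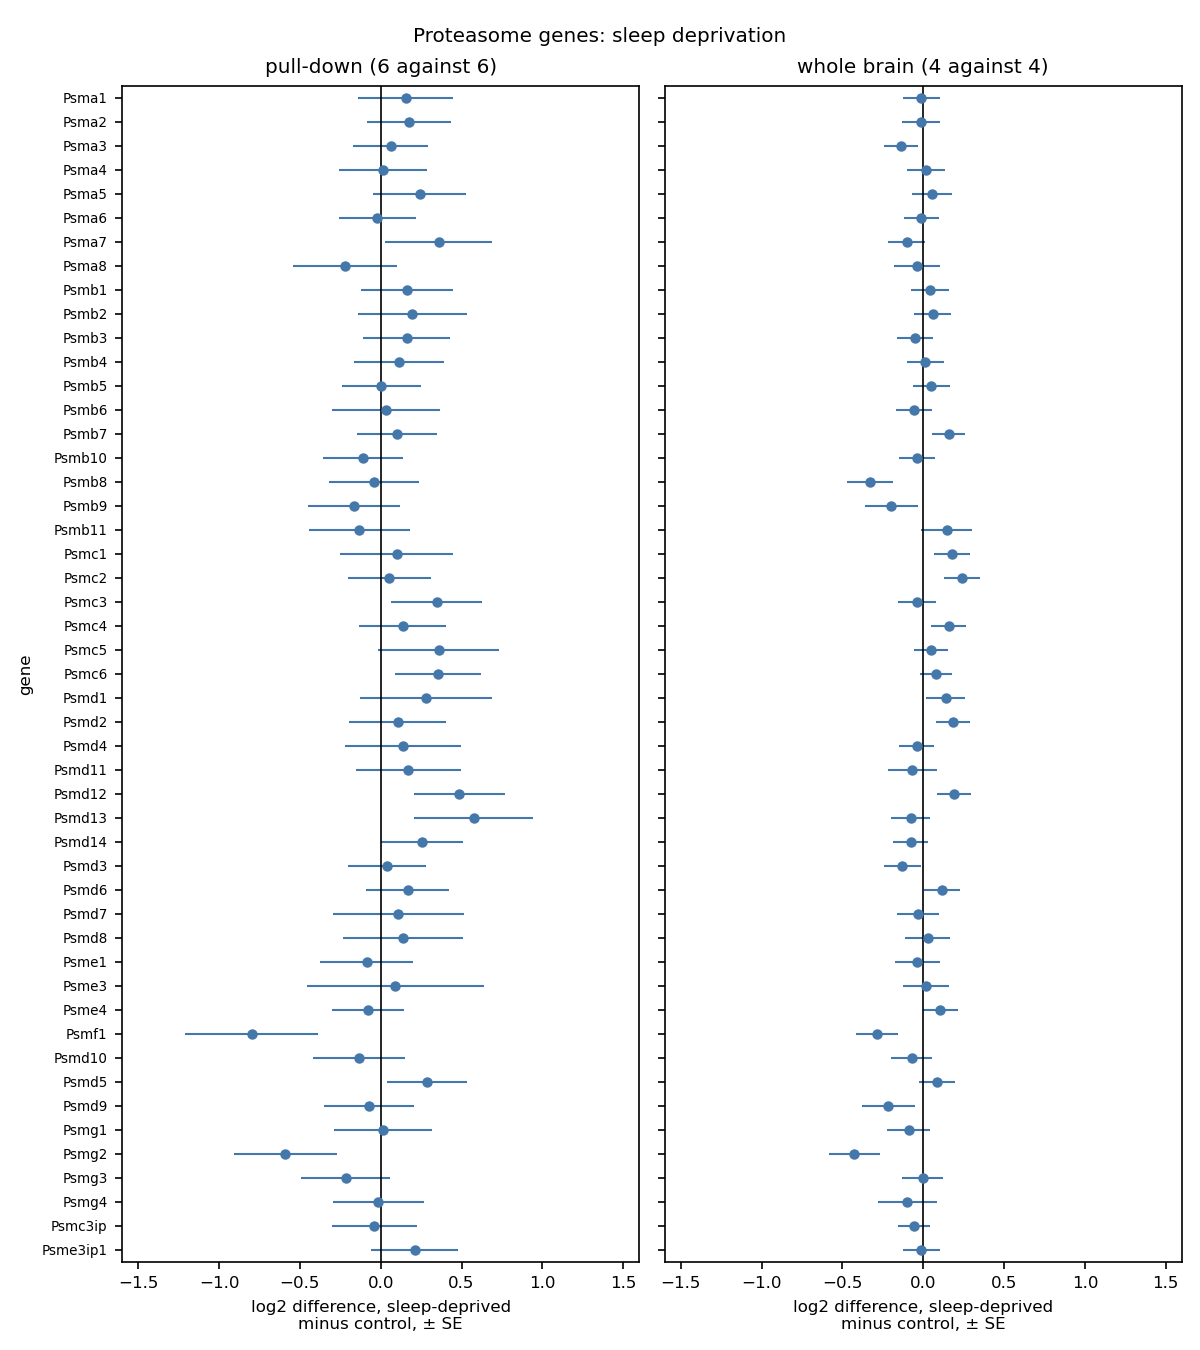
Points are log2 differences, sleep-deprived minus control, with SE, in pull-down (6 against 6) and whole brain (4 against 4). In whole brain Psmg2 (-0.43), Psmb8 (-0.33) and Psmf1 (-0.29) lie lowest, and the SEs are wider in pull-down.

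Genes that work with the proteasome were also found in both directions against whole brain, where 12.9% of all genes were higher and 68.8% lower. Of 11 partners measured, 3 were higher and 4 lower: Txnl1, a thioredoxin-like protein bound to the regulatory particle (1.64 ± 0.14), and Sem1, a small lid subunit (0.54 ± 0.15), were highest, and Ecpas, an adaptor (-2.08 ± 0.22), and Fbxo7, a ubiquitin ligase subunit (-1.91 ± 0.18), lowest. Of 15 genes of ubiquitin conjugation and delivery, 6 were higher and 7 lower. Ubqln2, a shuttle (1.15 ± 0.15), and Ube2d2a, a conjugating enzyme (1.05 ± 0.16), were highest, and the unfoldase Vcp (-3.04 ± 0.27) and Ubqln4 (-2.52 ± 0.21) lowest. These 8 genes kept their sign under the other scalings.

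Of 7 genes that regulate proteasome transcription 0 were higher and 6 lower, beside those 68.8%. The factors Mafg (-1.88 ± 0.24) and Nfe2l2 (-1.59 ± 0.18) were lowest and kept their sign, and Mafk (-0.16 ± 0.13, not called) and Ngly1, the enzyme that activates Nfe2l1 (-0.31 ± 0.13), were highest and turned positive after quantile normalization and median subtraction. With sleep deprivation limma called 0 genes of these 3 lists in either extract. Txnl1 (0.29 ± 0.12) and Ube2d1 (-0.30 ± 0.13) were past an unadjusted p of 0.05 in whole brain. Over all probe sets 2.1% were higher and 8.83% lower at that level.

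Of 11 interferon and antigen presentation genes 0 were higher and 11 lower against whole brain, beside 68.8% of all genes lower, with a list median of -1.04 as deposited, 0.03 after quantile normalization and 0.12 after median subtraction. Tapbp (-2.87 ± 0.31) and H2-K1 (-1.76 ± 0.19) were lowest and negative under every scaling, and H2-Aa (-0.60 ± 0.15) and Tap1 (-0.65 ± 0.18) were highest and turned positive under the others. In whole brain after sleep deprivation limma called 0 of the 11. Tap2 (-0.29 ± 0.10), Irf1 (-0.36 ± 0.15) and H2-Aa (-0.31 ± 0.10) were lower at an unadjusted p under 0.05, as were 8.83% of all probe sets.

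Markers of cell types were compared in the same way, beside 68.8% of all genes lower. All 10 microglial and all 10 endothelial and pericyte markers were lower than in whole brain, as were 8 of 9 oligodendrocyte markers. Of 10 astrocyte markers 1 was higher and 8 lower, and of 10 neuronal markers 1 was higher and 4 lower, all as deposited. The medians of the first 4 lists stayed negative after quantile normalization and median subtraction, and that of the neuronal list (-0.24) was -0.35 and 0.92. The summed linear intensity of the microglial markers was 1144 to 2234 in pull-down and 3291 to 4266 in whole brain, and that of the neuronal markers 23380 to 41410 and 36058 to 40061. In whole brain the microglial sum was 3295 to 4266 after sleep deprivation and 3291 to 3885 in controls, beside the values of Psmb8. The part of cell composition in the proteasome values was not tested.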

How the data were processed

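The authors deposited log2 intensities, 1 for each probe set on each array; the submitters' processing notes name RMA and the affy package; no version, nor whether all extracts were normalized together, is given in the sources used here. The deposited log2 intensities were used without further scaling, offset or filter. Symbols came from the array's annotation of 2016, and promoter windows from RefSeq (GRCm38.p6).

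Groups follow the labels. In R 4.3.3, limma 3.58.1 (lmFit, eBayes, two-sided) compared extracts in 1 fit of 24 arrays with 5 groups, pull-down and whole brain each as the equal-weight mean of their 2 conditions, and sleep deprivation on its own arrays; the difference of effects used 20 arrays. P-values were adjusted by Benjamini-Hochberg over 45037 probe sets (threshold 0.05). They measure the spread between the samples of the fit, which between extracts includes the third extract too. The fit was tested on simulated data with the same spread in every group and no shift of a whole extract. That test therefore does not cover these 2 features of the pull-downs.

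Named in each comparison are Psmb5 to Psmb10, the 3 highest and 3 lowest genes, and the gene nearest each role's median; for sleep deprivation, the 3 smallest p-values and Psmb5 to Psmb10; for probe sets, the 3 widest genes; for lists, the 2 highest and 2 lowest. The genes without overlap, the 9 higher genes and the genes lost or gained in an alternative were named after their values were seen. Members and lists were chosen with earlier results of these data known. Arrays have no read depth, and their number limits the precision. Alternatives were other scalings, array weights, other probe sets, a filter on low values, and left-out arrays.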

Additional observations from a re-analysis of the deposited data

Results flagged for a closer look

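Of 190 sets of 4 or 6 arrays tested, for 37 named genes and the median of the 49 in each of the 5 groups, 14 had 1 array far from the others; chance flags about 1 in 20. Sleep-deprived pull-down 1 stood above the other 5 for 6 genes: Psmb5 (8.02, others 6.75 to 7.14), Psmc5 (7.93, others 5.67 to 6.44), Psmd1 (8.71, others 6.34 to 7.23), Psmd8 (7.60, others 5.11 to 5.53), Psmd11 (9.86, others 7.79 to 8.42) and Psmd13 (8.22, others 6.37 to 7.01). Each of these 6 genes was lower in pull-down, as were 36 of the 49. This array had the second highest 18S signal of the pull-downs, and control pull-down 3, with the highest, was flagged for no gene. What set this array apart was not tested.

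Control pull-down 4 was lowest for Psme1 (5.13, others 6.05 to 6.57) and Psme3ip1 (5.69, others 6.46 to 6.91). In whole-brain controls, array 22 was low for Psma5 (8.72, others 9.11 to 9.18), and array 25 was high for Psmb10 (8.16, others 7.83 to 7.88) and for the median of the 49 genes (8.89, others 8.69 to 8.72). After sleep deprivation in whole brain, array 18 was high for Psmc1 (11.04, others 10.82 to 10.85), array 19 low for Psmg1 (6.02, others at least 6.44) and array 20 high for Psmg2 (7.15, others 6.82 to 6.87).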

How the results depend on the processing

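Quantile normalization gave 15 higher and a median of -0.29 for pull-down against whole brain. For pull-down against supernatant it gave 17 lower and a median of -0.18. For whole brain against supernatant it gave 17 higher and 3 lower, beside 11.4% and 9.61% of all probe sets. It turned against whole brain Psma8 (0.27), Psmd3 (0.15), Psme3ip1 (0.35) and Psmf1 (0.035), and against supernatant Psma8 (0.54), Psmb9 (0.42) and Psmf1 (0.027). Subtracting array medians gave against whole brain 18 higher, 17 lower and a median of -0.017, and against supernatant 7 lower and a median of 0.28. It turned against whole brain Psma8 (0.49), Psmb10 (0.21), Psmb11 (0.093), Psmd3 (0.53), Psme3ip1 (0.47) and Psmf1 (0.35), and against supernatant Psma8 (0.81), Psmb1 (0.0097), Psmb10 (0.18), Psmb11 (0.0061), Psmb5 (0.016), Psmb6 (0.28), Psmb7 (0.14), Psmb9 (0.46), Psmc3 (0.49) and Psmf1 (0.43). The mean of a gene's probe sets gave 1 higher against whole brain and 6 against supernatant, and turned Psmb3 (-0.062) in the first and Psmb1 (0.087) and Psmc3ip (-0.32) in the second. Probe sets of the kinds _at and _a_at gave a median of -1.15 against supernatant and turned Psmc2 (-0.78), Psmc3ip (-1.15) and Psmd11 (2.18). The probe set brightest in supernatant turned Psma5 against whole brain (-0.70). These use other probe sets. For whole brain against supernatant, array weights gave 23 higher and 2 lower, and a filter that kept the brighter probe sets 1 lower. Leaving out the 3 pull-downs that stood apart gave 18 and 2. Leaving out 1 array gave 7 to 14 higher and 0 to 1 lower, 1 without sleep-deprived pull-down 1 or control pull-down 11. The cause was not tested. Arrays 1, 3 and 11 and the supernatant probe set were alternatives chosen after seeing the data. Counts of called genes under sleep deprivation were 0 in every alternative run. Of 797 values of named genes under alternatives other than a left-out array, 713 kept direction and side of the threshold. No paired analysis was possible because the pull-down groups share only 1 replicate number, pull-down and supernatant only 1 (13, titled control in one and sleep-deprived in the other, whose source field says control), and the whole-brain groups none.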
